A study of Mus musculus with 4 samples.

Results

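The clustered protocadherins are cell surface adhesion proteins whose genes lie side by side on mouse chromosome 18, and their DNA methylation was described here in islets with and without Raptor in beta cells. The genes were taken by name, as the protein-coding genes whose GENCODE symbol begins with Pcdha, Pcdhb or Pcdhg, which gave 57 of the 21853 annotated protein-coding genes. They fell into 12 Pcdha, 22 Pcdhb, 12 Pcdhga and 6 Pcdhgb genes, and 5 C type genes (Pcdhac1, Pcdhac2, Pcdhgc3, Pcdhgc4 and Pcdhgc5). The rule itself used no measured value, though the genes were chosen with earlier results of these data known. A region, meaning peaks of the 4 libraries joined wherever they overlapped by at least 1 bp, was assigned to a gene where it overlapped the first exon or the 2 kb upstream of it. By this rule 51 of 186169 regions belonged to the genes, of which 49 overlapped a first exon and 2 lay upstream alone. The constant exons shared within a cluster were counted once and added 2 regions.

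In the alpha and gamma clusters each gene has a large first exon of its own, called the variable exon, which carries its own promoter and encodes the whole extracellular part, the membrane span and the start of the cytoplasmic tail. This exon is spliced to constant exons that all genes of the cluster share, whereas each beta gene is a single exon with no constant part. Neurons switch on a different small set of these promoters in each cell, and methylation of the promoters and variable exons is a known part of this choice. The C type genes differ in being expressed more uniformly. The proteins bind their like on neighbouring cells and serve in neuronal self-recognition. Islets are not their best known site of action.

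MeDIP-seq was used to measure methylation. An antibody to methylated cytosine enriches DNA fragments before sequencing, and tags pile up where methylated CpG sites are dense. There were 2 libraries from WT islets (Raptor lox/lox, no Cre) and 2 from βRapKO islets (Raptor lox/lox; RipCre), all from mice 8 weeks old, labelled as C57BL/6. Raptor is the defining subunit of the kinase complex mTORC1, and its floxed alleles were carried by both groups. In βRapKO, Cre was driven by the rat insulin promoter, so that deletion was aimed at beta cells alone, and the Cre line came from a mixed C57BL/6J:129/SvJ background. The WT mice were littermates, the study used male mice unless it stated otherwise, and how many mice went into a library is not given in the sources used here. Nothing in the labels says that the libraries came from separate mice, so p-values measure the spread between these libraries, which may be technical. Islets are bulk tissue, and a different share of one cell type and a different methylation level per cell cannot be told apart. Peak files do not show whether the floxed part of Raptor was lost, so the genotype labels were not checked. Of 7 islet hormone genes, only Pyy had a region at its first exon or upstream, and it was not called in all 4 libraries, so tissue identity could not be checked either.

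The libraries held 25585533 to 31330751 tags after removal of duplicates. Tags of the peaks in a region were divided by this number and multiplied by 1000000 to give CPM, the level used below unless a value is said to be per kb of peak. Over the genome, 75052 regions had a peak in all 4 libraries, and βRapKO against WT was tested in these. No region passed an FDR of 0.05 with a 1.5-fold change by edgeR's quasi-likelihood test or by limma, while 4363 had an unadjusted p under 0.05 with edgeR and DESeq2 called 2. In these regions the median log2 fold-change of βRapKO over WT was -0.059.

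Peaks were frequent at the clustered protocadherins. A region called in all 4 libraries lay at the first exon or upstream 2 kb of 40 of the 57 genes (70.2%), against 11.7% of all protein-coding genes. Among the 51 regions themselves, 37 (72.5%) were called in all 4 libraries, against 40.3% of all regions. With stricter peaks, of a score of at least 100, the counts were 25 genes, against 5.58% of all genes, and 23 of 43 regions (53.5%), against 36.1% of all regions. The shares of genes come from unlike windows, since all members have a first exon of at least 2000 bp and only 458 other genes do. A longer window can meet a peak more often, and these shares were not corrected for it. The libraries did not call equally many of them, with 40 of the 51 in WT replicate 1, 48 in WT replicate 2, 44 in βRapKO replicate 1 and 43 in βRapKO replicate 2. The subfamilies differed in how completely they were called. Such regions were found at 11 of 12 Pcdha, 14 of 22 Pcdhb, 7 of 12 Pcdhga, 5 of 6 Pcdhgb and 3 of 5 C type genes. In 35 of the 40 genes the region lay over the gene's own variable exon. Pcdhb16, Pcdhga4, Pcdhga5, Pcdhga10 and Pcdhgc5 were counted only because the region of the gene before them reached into their upstream 2 kb.

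No peak was called in any library at Pcdhac1, Pcdhb5, Pcdhb9, Pcdhb10, Pcdhga1 and Pcdhga3. The remaining 11 genes had peaks in 1 to 3 libraries. A missing call is not a level of 0, since tags outside peaks were not used here. The variable exons of the 6 genes without a peak had a median of 2.26 CpG sites per 100 bp, those of the 11 genes called in part 2.67, and those of the 40 genes called in all 4 libraries 3.54. The ranges overlapped widely, from 1.87 to 3.08 in the first set, 1.65 to 4.9 in the second and 1.16 to 5.8 in the third. These sets count peaks over the exon or the upstream 2 kb. Pcdhga4, Pcdhga10 and Pcdhgc5 in the third set and Pcdhga11 in the second had no region over the exon itself. Pcdhb16 and Pcdhga5 in the third set had a region there, but not in all 4 libraries. Pcdhb14 had the lowest CpG density of all variable exons, 1.16 in an exon of 8695 bp, and was called in all 4 libraries. The low value is a mean over this long exon. Between 500 and 2400 bp its density was 3.05, equal to the Pcdhb median, and in the called region it was 2.89. Pcdhgc3, the C type gene with the highest density, 5.8, was likewise called in all 4.

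**Figure D1:**
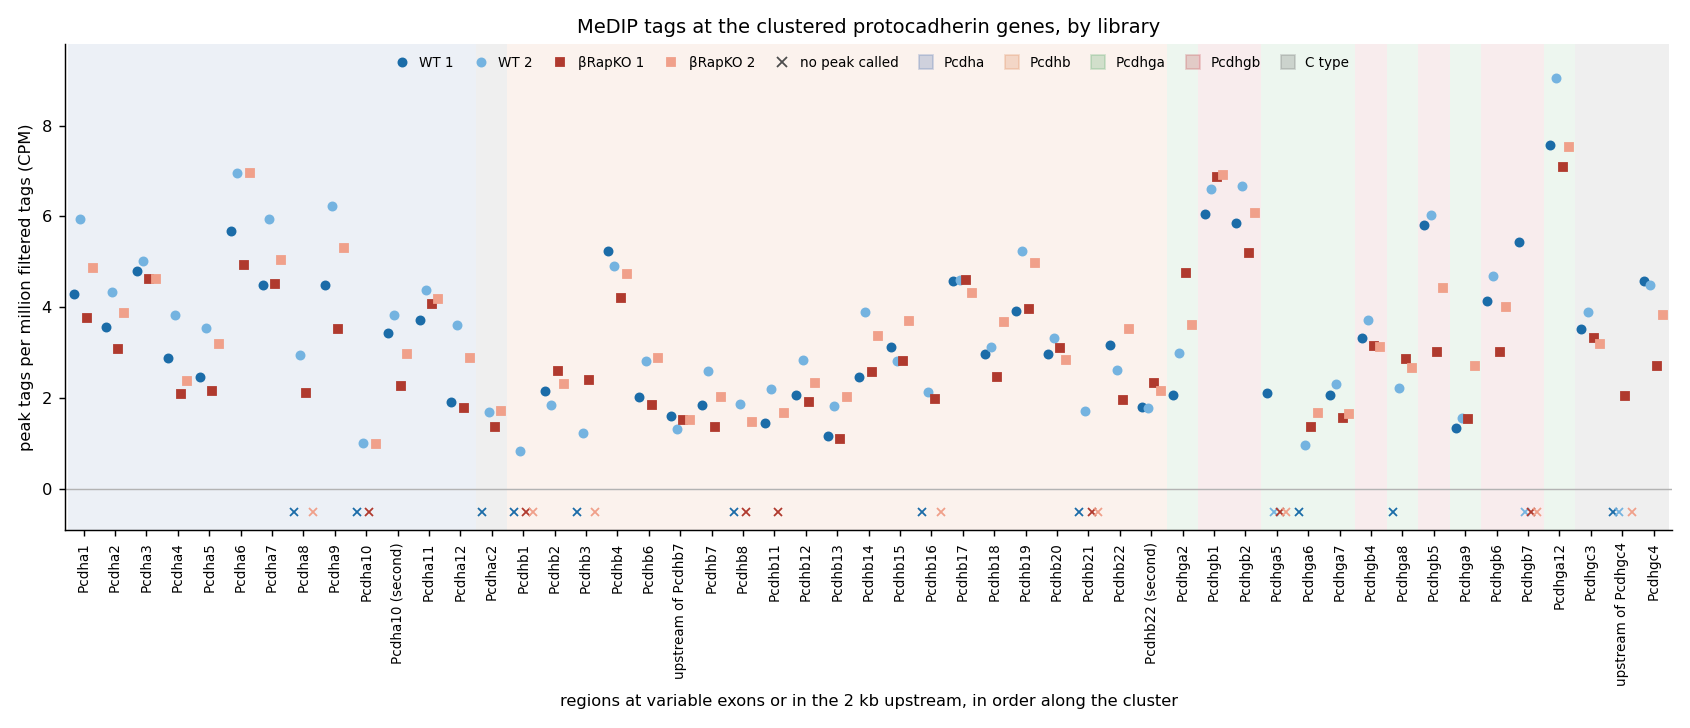
CPM in every region at a variable exon or in the 2 kb upstream, in order along the cluster; circles are WT and squares βRapKO libraries, crosses under the axis mark libraries without a peak, and the shading gives the subfamily. Of 51 regions, 37 have 4 values, and the symbols of the 2 genotypes are mixed in most of them.

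Most peaks had their summit in the body of the variable exon and not at its start. Of 177 peaks called over variable exons in single libraries, all had their summit inside the exon, and 2 had it in the first 500 bp. The median summit lay 1684 bp downstream of the exon start. It was at 1687 and 1671 bp in the WT libraries and at 1683 and 1691 bp in the βRapKO libraries. The bases from 250 bp before to 250 bp after the exon start were covered by a region of all 4 libraries in 8 of 57 genes (14.0%), and the bases from 1000 to 1500 bp in 35 of 57 (61.4%). In single libraries the start was covered in 5 to 8 genes and the body in 38 to 41. The 8 genes covered at the start were Pcdha6, Pcdha11, Pcdhb14, Pcdhga2, Pcdhga12, Pcdhgb1, Pcdhgb2 and Pcdhgb5, counted by joined regions, which can reach further than the peak of a single library. Each of the 4 libraries had a peak of its own over the start in 2 of them, Pcdhgb2 and Pcdhgb5, and over the body in 33 genes. At Pcdha6 the start was reached by the peak of βRapKO replicate 2 alone and at Pcdha11 by that of βRapKO replicate 1 alone. Pcdhgb, with 6 genes, gave 3 of the 8. Its peaks began at a median of 186 bp from the exon start, against 883 bp over all subfamilies.

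Other genes with a long first exon gave another profile. All 57 members have a first exon of at least 2000 bp, as do 458 other protein-coding genes. The start was covered in 67 of these 458 genes (14.6%), close to the share in the protocadherins, and the body in 118 (25.8%), less than in the protocadherins. The genes overlap and neighbour each other in both sets, so the difference was not tested. Among the 8 non-clustered protocadherins with such an exon, relatives outside the cluster, the start was covered in 0 and the body in 1. Within the cluster the body share differed by subfamily. From 1100 to 1200 bp, regions of all 4 libraries covered 11 of 12 Pcdha, 13 of 22 Pcdhb and 5 of 6 Pcdhgb genes. They covered 4 of 12 Pcdhga genes (33.3%) and 2 of 5 C type genes (40.0%).

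The place of the summit differed between the subfamilies. It had a median of 1475 bp over 48 Pcdha peaks and 1737 bp over 73 Pcdhb peaks. Over 21 Pcdhgb peaks it was 1824 bp and over 11 C type peaks 1941 bp, whereas over 24 Pcdhga peaks it was 1050 bp. The spread within a subfamily was narrow in Pcdha, with quartiles at 1414 and 1538 bp, and wide in Pcdhga, with quartiles at 875 and 1699 bp. In Pcdha, Pcdhb and Pcdhgb the summits lay near the stretch of 100 bp that was richest in CpG sites. That stretch was 1500 to 1600 bp from the start in Pcdha (a mean of 8.92 sites), 1800 to 1900 bp in Pcdhb (6.23) and 1800 to 1900 bp in Pcdhgb (13.5). In Pcdhga and the C type genes the richest stretch was 300 to 400 bp from the start, with means of 6.75 and 8.2, and no summit of these 2 groups lay in the first 500 bp. Over all 57 genes the first 500 bp had a median of 4.8 CpG sites per 100 bp, more than the 3.37 between 500 and 2400 bp, while the upstream 2 kb had 0.9. In Pcdhb this order was turned around, with 1.8 in the first 500 bp and 3.05 beyond.

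**Figure D2:**
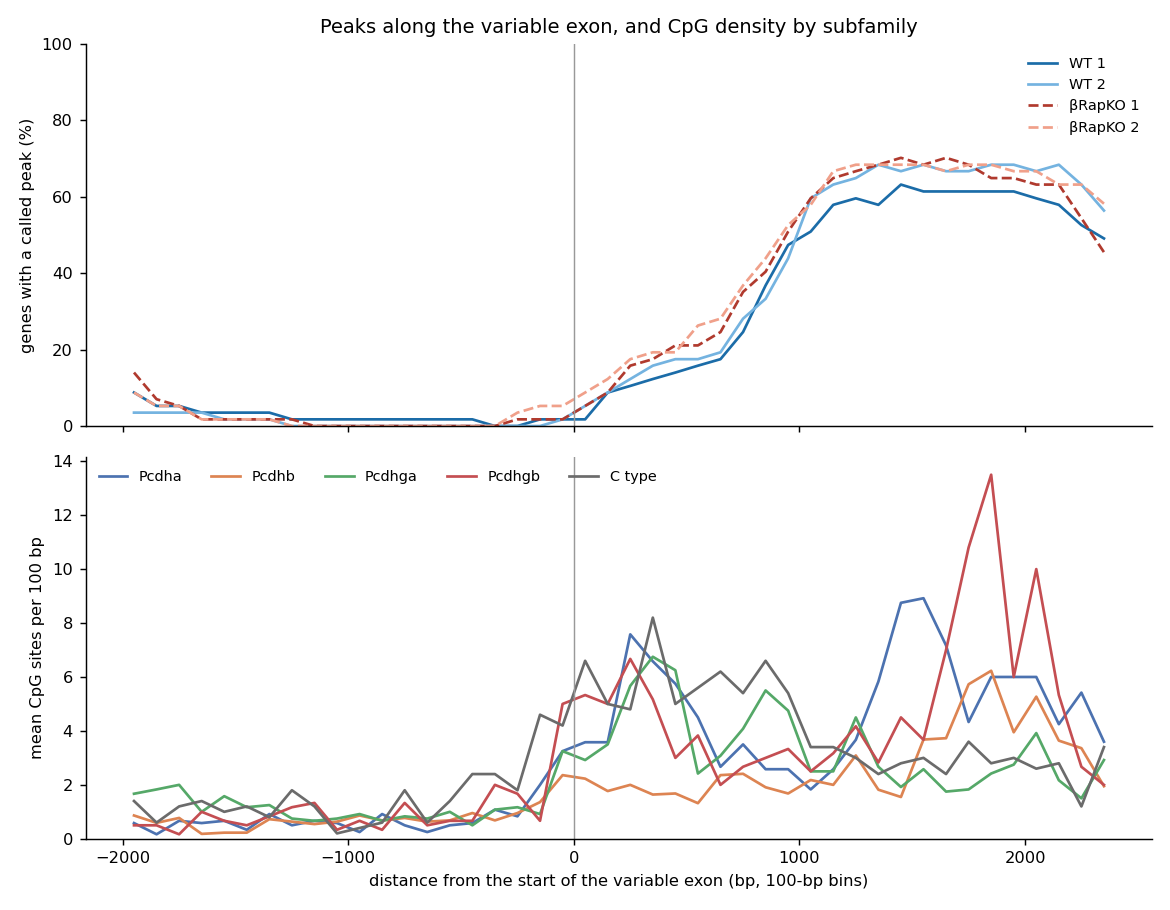
The upper panel plots the percentage of the 57 genes with a called peak in bins of 100 bp against the distance from the start of the variable exon, with 1 line per library; the lower panel plots the mean number of CpG sites per 100 bp in the same bins for each subfamily. Peaks are rare within 250 bp of the start and most frequent beyond 1000 bp in all 4 libraries, while CpG sites rise at the start in every subfamily and again beyond 1400 bp in Pcdha, Pcdhb and Pcdhgb.

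Against all regions tested, those of the protocadherins were rich in CpG sites. Their median density was 3.8 per 100 bp against 1.78, and 98.7% of all regions tested lay under 3.8. Their median width of 1874 bp was above the 1429 bp of all regions, and their median fold enrichment over the local background was 8.95 against 8.13. Among the 35 genes with a region over their own variable exon in all 4 libraries, the number of CpG sites in the exon and the mean CPM of the region went together, with a Spearman's rho of 0.53 and a Pearson's r of 0.54. These points share libraries, and CPM was not divided by the length of the peak. The sites were counted over the whole exon, of 2346 to 8695 bp, and not over the peak.

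The genes are near copies of each other, which bears on where a short read can be placed. Of all stretches of 50 bases in a variable exon, the length of a read, 10.2 to 26.6% occurred elsewhere in the genome in Pcdha, 2.67 to 17.9% in Pcdhgb, 0 to 12.0% in Pcdhb and 0 to 4.25% in Pcdhga. None did in the C type genes. In Pcdha the share with a copy inside the cluster was the same. Levels of single genes are therefore uncertain where the aligner divided reads between copies, most in Pcdha and Pcdhgb and also in Pcdhb.

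In the comparison of genotypes, which asks whether loss of Raptor in beta cells went with a different methylation of these genes, none of the 37 regions passed the test, with a background of 0.0% in each direction. The smallest adjusted p among them was 0.786 by edgeR's quasi-likelihood test, adjusted by Benjamini-Hochberg over all regions. At an unadjusted p under 0.05 there were 4 regions, against a background of 5.81%. The mean CPM was lower in βRapKO in 27 of the 37 regions (73.0%), against 60.8% of all regions, and the median log2 fold-change was -0.13. With libraries scaled by their tags within peaks this turned to 17 of 37, against 31.4% of all regions, with a median of 0.037. The βRapKO values both lay under the WT values in 11 regions, against a background of 25.3%, and both above in 4, against 11.6%. In the other 22 regions the genotypes overlapped. A mean more than 1.5-fold lower was seen in 2 regions (background 1.77%) and more than 1.5-fold higher in 1 (background 1.29%). No region was called in both libraries of 1 genotype and in neither of the other, against backgrounds of 4.16% for WT alone and 1.58% for βRapKO alone.

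These differences were of the size of the spread between libraries. The median absolute log2 difference was 0.236 between the WT libraries, 0.329 between the βRapKO libraries and 0.18 between the genotype means. A difference of means of 2 libraries varies less than one of single libraries, so the last value is not on the same scale. WT replicate 2 was above WT replicate 1 in 30 of the 37 regions (81.1%, against 47.2% of all regions), and βRapKO replicate 2 above replicate 1 in 29 (78.4%, against 61.6%). In Pcdha this held for 11 of 11 regions in both genotypes. Without WT replicate 2 the median log2 fold-change of the 37 regions was 0.004 and 18 of them were lower in βRapKO. Without βRapKO replicate 1 the values were -0.033 and 20. Without WT replicate 1 they were -0.249 and 29, and without βRapKO replicate 2 they were -0.308 and 29.

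**Figure D3:**
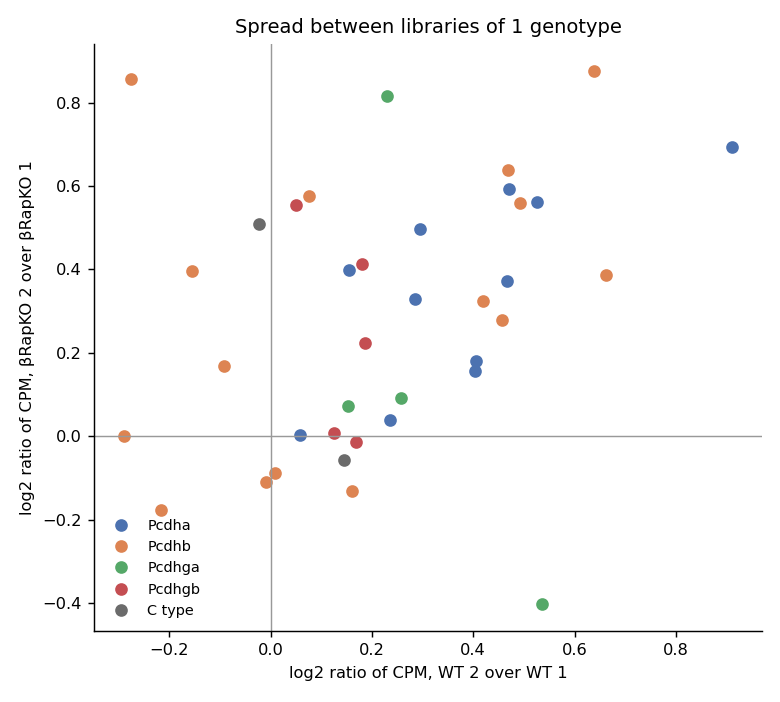
Each point is 1 of the 37 regions called in all 4 libraries, placed by the log2 ratio of CPM between the 2 WT libraries (horizontal axis) and between the 2 βRapKO libraries (vertical axis) and coloured by subfamily. Most points lie right of and above the zero lines, as all Pcdha points do.

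The members were also set beside all regions of like CpG density. Of the 575 regions in the genome with 4 to 5 CpG sites per 100 bp, 84.0% were lower in βRapKO, with a median log2 fold-change of -0.181. In these 575 regions WT replicate 2 was above WT replicate 1 in 78.1%, and βRapKO replicate 2 above βRapKO replicate 1 in 82.1%. The 13 protocadherin regions in this range had a median of -0.18, and 12 were lower. Of the 4051 regions with 3 to 4 sites, 78.8% were lower, with a median of -0.118. The 14 protocadherin regions in that range had a median of -0.015, and 7 were lower. Above 5 sites, 86.3% of 139 regions were lower, with a median of -0.205, and so were 4 of 4 protocadherin regions, with a median of -0.43. With 2 to 3 sites, 64.5% of all regions were lower, with a median of -0.075, and 4 of 5 protocadherin regions, with a median of -0.11. The 1 protocadherin region under 2 sites was higher, at 0.06, where 57.2% of all regions were lower.

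Over all regions tested, 60.8% had a lower mean in βRapKO and 25.3% were lower without overlap, the genome-wide background for the subfamilies below. As given above, the share of lower means was larger in regions dense in CpG sites, with 84.0% at 4 to 5 sites per 100 bp. The median density of the variable exon was 4.73 in Pcdha, 2.07 in Pcdhb, 3.13 in Pcdhga, 4.75 in Pcdhgb and 3.82 in the C type genes. In Pcdha, 10 of 11 regions had a lower mean in βRapKO, with a median log2 fold-change of -0.19 and 3 regions without overlap of the genotypes. Pcdha6 had the most tags, not corrected for length, with 5.67 CPM in WT replicate 1 and 6.96 in WT replicate 2, 4.93 in βRapKO replicate 1 and 6.96 in βRapKO replicate 2. Values below keep this order. The region was chr18:36967392-36970326 (GRCm38) and reached from upstream of the variable exon to beyond its end. The genotypes overlapped, with replicate 2 the higher library in each, and the log2 fold-change was -0.09 ± 0.20 (SE, adjusted p = 0.962). Its peak was 2935 bp wide in βRapKO replicate 2 and 1739, 1850 and 1865 bp in the other libraries. Per kb of peak the levels were 3.26 and 3.76 CPM in WT and 2.64 and 2.37 in βRapKO, without overlap, at a log2 fold-change of -0.48. Pcdha4 had the lowest log2 fold-change of the subfamily, with 2.89 and 3.83 CPM in WT and 2.09 and 2.37 in βRapKO (chr18:36953732-36955133, inside the variable exon). Neither βRapKO value reached a WT value, the log2 fold-change was -0.60 ± 0.21 and the adjusted p was 0.849. Leaving out 1 library at a time moved it between -0.78 and -0.38. Pcdha11 alone had a higher mean in βRapKO, by a log2 fold-change of 0.03, with 3.71 and 4.37 CPM in WT and 4.07 and 4.18 in βRapKO (chr18:37010802-37013459). Pcdha10, which carries the symbol Pcdha11 in the GENCODE release used and was named from RefSeq, had a second, smaller region at its exon start (chr18:37005013-37005862), called in WT replicate 2 with 1.02 CPM and in βRapKO replicate 2 with 0.994 CPM alone. At Pcdha8 peaks were called in WT replicate 2, with 2.94 CPM, and in βRapKO replicate 1, with 2.12 CPM.

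In Pcdhb, 9 of 15 regions were lower and 6 higher in βRapKO, with a median of -0.04. Pcdhb4 had the most tags, with 5.24 and 4.92 CPM in WT and 4.21 and 4.73 in βRapKO (chr18:37308316-37310079, inside its exon). The WT values were the higher ones by a small margin, with a log2 fold-change of -0.18 ± 0.16 (adjusted p = 0.891). Pcdhb7 had the lowest log2 fold-change, with 1.84 and 2.59 CPM in WT and 1.37 and 2.02 in βRapKO (chr18:37342753-37344128). Here the genotypes overlapped, at a log2 fold-change of -0.40 ± 0.27 (adjusted p = 0.866), which ran from -0.70 to -0.12 with 1 library left out. The highest log2 fold-change was in the second region of Pcdhb22, which began 3276 bp from the start of its exon, with 1.80 and 1.79 CPM in WT and 2.33 and 2.16 in βRapKO (chr18:37521147-37522330). The genotypes did not overlap, at a log2 fold-change of 0.32 ± 0.19 (adjusted p = 0.862).

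Pcdhga and Pcdhgb genes alternate along the gamma cluster. In Pcdhga only 4 regions could be tested, 2 lower and 2 higher. Pcdhga12, the last of them, had the most tags of all 57 genes, with 7.58 and 9.06 CPM in WT and 7.08 and 7.54 in βRapKO (chr18:37765813-37768676). The genotypes were separate, though WT replicate 1 and βRapKO replicate 2 were nearly level, at a log2 fold-change of -0.19 ± 0.14 (adjusted p = 0.868), which ran from -0.31 to -0.05 with 1 library left out. Pcdhga7 was at 2.07 and 2.30 CPM in WT and at 1.57 and 1.65 in βRapKO (chr18:37715909-37717025), again without overlap, at a log2 fold-change of -0.44 ± 0.19 (adjusted p = 0.858).

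Pcdhga2 had the highest log2 fold-change of all members, with 2.07 and 3.0 CPM in WT and 4.76 and 3.60 in βRapKO (chr18:37669121-37671646). Each βRapKO library was above each WT library, at a log2 fold-change of 0.71 ± 0.24 (adjusted p = 0.838), which ran from 0.48 to 1.01 with 1 library left out. The called peak was also wider there, with 957 and 1349 bp in WT and 2400 and 2299 bp in βRapKO. Per kb of peak the order was reversed, with 2.16 and 2.22 CPM in WT and 1.98 and 1.57 in βRapKO.

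In Pcdhgb, 4 of 5 regions were lower, with a median of -0.17. Pcdhgb1 had the most tags and was the only one with a higher mean, with 6.06 and 6.61 CPM in WT and 6.88 and 6.92 in βRapKO (chr18:37680238-37683227). The WT libraries were the lower ones, at a log2 fold-change of 0.12 ± 0.13 (adjusted p = 0.909), over peaks of 2104 and 1812 bp in WT and 2976 and 2944 bp in βRapKO. Pcdhgb5 had the lowest log2 fold-change of all members, with 5.82 and 6.03 CPM in WT and 3.01 and 4.42 in βRapKO (chr18:37731059-37733344, within the variable exon). The βRapKO libraries were both lower and differed from each other by more than the WT libraries did, and the log2 fold-change was -0.67 ± 0.20 (unadjusted p = 0.0120 and adjusted p = 0.786 by edgeR's quasi-likelihood test). With 1 library left out it ran from -0.98 to -0.42. Its peaks were 2150 and 2279 bp wide in WT and 1629 and 2000 bp in βRapKO, and per kb of peak the levels were 2.71 and 2.65 CPM in WT and 1.85 and 2.21 in βRapKO, the same order. Pcdhgb7 was called in WT replicate 1 alone, by a peak of 2790 bp with 139 tags whose score of 54.9 was just above the caller's minimum of 50. Pcdhga5 was called over its own exon in the same library alone, with 2.11 CPM and a score of 50.3.

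Both C type regions called in all 4 libraries were lower in βRapKO without overlap, as were 25.3% of all regions, and 2 regions are too few to give a share. Pcdhgc4, a gene needed for the survival of cortical interneurons, had 4.57 and 4.5 CPM in WT and 2.70 and 3.84 in βRapKO (chr18:37816013-37818191), at a log2 fold-change of -0.47 ± 0.20 (adjusted p = 0.858), which ran from -0.75 to -0.24 with 1 library left out. Pcdhgc3 had 3.52 and 3.89 CPM in WT and 3.32 and 3.19 in βRapKO, at a log2 fold-change of -0.19. Pcdhac2, which acts in the spacing of serotonergic axons, lacked a peak in WT replicate 1 alone and was at 1.69 CPM in WT replicate 2 and at 1.37 and 1.71 CPM in βRapKO.

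The constant exons carried few peaks. Constant exon 2 of the alpha cluster, shared by 14 genes, was overlapped by a peak in WT replicate 2 with 1.12 CPM and in βRapKO replicate 2 with 1.17 CPM (chr18:37155850-37156581). Constant exon 4 of the gamma cluster, which encodes the end of the shared cytoplasmic domain, was overlapped in WT replicate 2 alone with 1.18 CPM (chr18:37839538-37840220). Neither was called in replicate 1 of either genotype, so neither was tested.

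**Figure D4:**
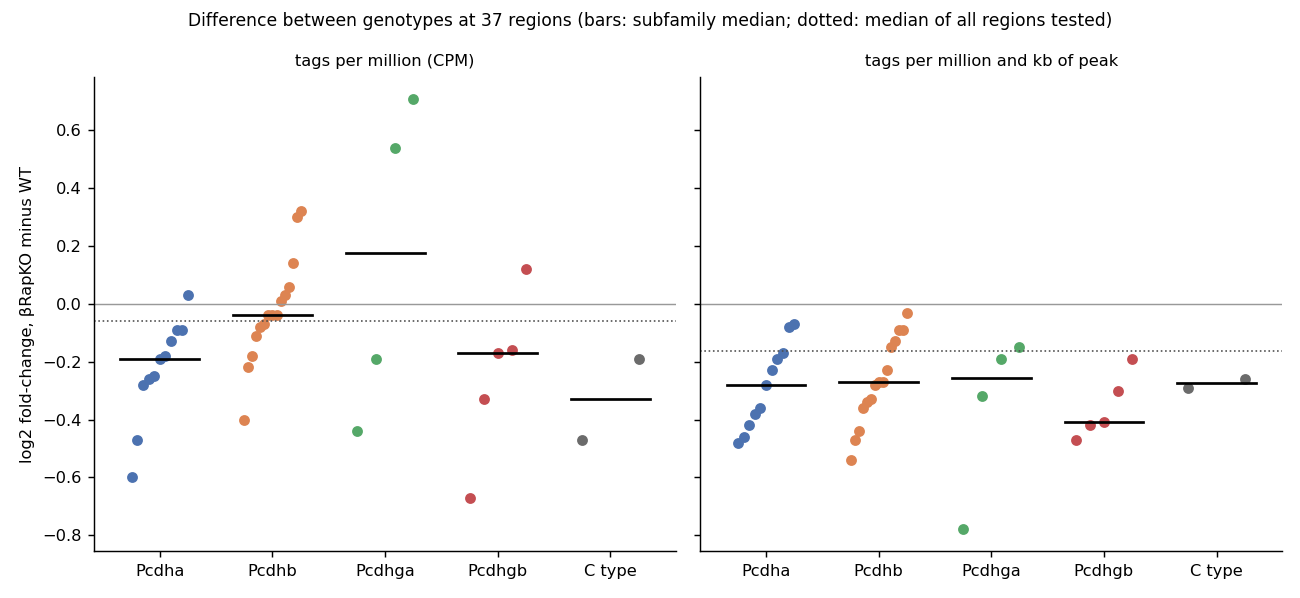
Log2 fold-change of βRapKO over WT in the 37 regions by subfamily, from CPM (left) and from CPM per kb of peak (right); black bars are subfamily medians, the dotted line is the median of all regions tested and the grey line is 0. From CPM 27 points lie below 0 and 10 above, and per kb of peak all 37 lie below 0.

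Dividing the tags by the length of the called peak moved the members and the genome in the same direction. Per kb of peak, 37 of 37 regions were lower in βRapKO, against 79.6% of all regions, and the median log2 fold-change was -0.28, against -0.164 for all. Regions of like CpG density lay closer to the members. With 3 to 4 sites per 100 bp, 89.8% of regions were lower per kb, at a median of -0.185. With 4 to 5 sites the values were 90.3% and -0.203. The genotypes were separated, with βRapKO lower, in 23 of the 37, against 41.1% of all regions. None of the 37 passed the test, and the smallest adjusted p was 0.356 by limma, adjusted over all regions, with 9 at an unadjusted p under 0.05. The peaks over these regions covered 57.3 and 56.3 kb in WT and 60.5 and 67.6 kb in βRapKO. The fragment length that the caller estimated was 275 and 238 bp in WT and 269 and 283 bp in βRapKO, and its part in the peak lengths was not tested.

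Levels of the subfamilies were set side by side per kb of peak, without a test and with the uncertainty of reads from near copies. Their medians ran from 2.06 CPM per kb in Pcdhb to 2.37 in Pcdha and Pcdhga in WT replicate 1, and from 2.44 in the C type genes to 2.73 in Pcdha in WT replicate 2. In βRapKO replicate 1 they ran from 1.71 in Pcdhga to 2.08 in Pcdha, and in replicate 2 from 1.71 in Pcdhga to 2.37 in Pcdha. Pcdha had the highest median in every library, level with Pcdhga in WT replicate 1. WT replicate 2 had the highest median of the libraries in each of the 5 subfamilies.

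The cluster spans 913.6 kb (chr18:36928285-37841873) and held 34 regions outside the exons and windows of the members. Of these, 16 were called in all 4 libraries, and 9 of the 16 were lower in βRapKO, with a median log2 fold-change of -0.047 and a smallest adjusted p of 0.858 by edgeR's quasi-likelihood test. Other genes of the same biology were counted over their first exon and upstream 2 kb. There, 24.8% of all protein-coding genes had a region in any library and 11.7% had one in all 4. None of 14 regulators of the clusters, among them the insulator protein Ctcf, the cohesin subunit Rad21, the silencer Smchd1 and the methyltransferase Dnmt3b, had a region in any library. Of 8 partners of the constant domains, 3 had one and 1 was called in all 4 libraries, Nckap1 of the actin-regulating WAVE complex, at a log2 fold-change of 0.17 (adjusted p = 0.941). Of 12 non-clustered protocadherins, 3 had one, and Pcdh12, an adhesion protein of endothelial cells, was called in all 4 libraries at a log2 fold-change of -0.41 (adjusted p = 0.858). None of these passed the test in either direction. Among markers of other cells, 2 of 6 acinar, 1 of 3 endothelial and 0 of 2 immune genes had a region in all 4 libraries, at log2 fold-changes of -0.04 for Amy2a2, -0.17 for Pnlip and -0.29 for Cdh5. With so few marker regions, the makeup of the islets was not tested.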

How the data were processed

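MeDIP-seq libraries were made from islet DNA and sequenced with 50 cycles. Per the paper's methods and the submitters' processing notes, the authors aligned reads to mm10 with Bowtie2 (version 2.2.5), and the notes also list mm9. Peak ends fitted the chromosome lengths of mm10. Each library had its own peak call by MACS (version 1.4.2 per the file headers, 0.14.2 per the notes). No control library entered the call, the p cutoff was 1e-05 and 1 tag was kept per position. The deposited values of each peak were a count of tags, not normalized, its fold enrichment over the local background (a ratio), and a score, 10 times the -log10 of the p of MACS. How reads with several matches were placed is not given in the sources used here.

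Peaks were joined across libraries at an overlap of 1 bp, and tags were divided by the filtered tags of the library. Regions called in all 4 libraries were tested with edgeR (version 4.0.16, R 4.3.3) by its quasi-likelihood test, with Benjamini-Hochberg adjustment over all 75052 regions. A simulation of the comparison over 75052 regions with 200 changed 2-fold found 108 of them and made 3 false calls. It gave all regions the same dispersion of 0.015 and served to check the code, so it is not a detection rate for these libraries. limma (version 3.58.1) and DESeq2 (version 1.42.0) served as alternatives. Gene models were GENCODE M21, checked by symbol against RefSeq, and CpG sites came from GRCm38. All 57 genes matched after Pcdha10 had been named from RefSeq, so the match says nothing for that gene. Sequences were not reported here. Other steps used SciPy 1.17.1, pandas 2.3.3 and NumPy 2.4.6 under Python 3.11.15.

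The genes and gene lists were chosen with earlier results of these data known. The rule for naming a region took, in each subfamily, that with the highest mean CPM and those with the lowest log2 fold-change under 0 and the highest above 0, beside the constant exons, the extremes of CpG density and genes without a peak. Other regions named (at Pcdha8, Pcdha10, Pcdhga5, Pcdhgb7, Pcdhgc3 and Pcdhac2), the comparison of libraries, the classes of CpG density, the peaks of single libraries over exon starts and the count of separated genotypes per kb of peak were chosen after their values were seen. Tags outside peaks, and the 500 bp windows of the paper, were not used here. Depth limits low regions most, and no intervals for single counts were computed. Alternatives were other library sizes, TMM, DESeq2, limma, tags per kb of peak, 50 tags at least, a score of 100 at least, an overlap of 50%, other upstream windows, no fold limit, the replicate block and each library left out.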

Additional observations from a re-analysis of the deposited data

How the results depend on the processing

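With libraries scaled by their tags within peaks, 17 of the 37 protocadherin regions were lower in βRapKO instead of 27, with a median log2 fold-change of 0.037, and Pcdha6 was at 0.07. That scaling moved the median of all regions from -0.059 to 0.104. With TMM and with DESeq2, 24 of 37 were lower. Per kb of peak, Pcdha11 was at -0.07, the second region of Pcdhb22 at -0.09, Pcdhga2 at -0.32 and Pcdhgb1 at -0.47. DESeq2 called 2 of all regions, and no member. With stricter peaks, 23 regions and 25 genes were called in all 4 libraries, and 1 region in 1 genotype only. Leaving out 1 library at a time gave 18 to 29 regions lower, a median of -0.308 to 0.004, 0 to 5 regions called in 1 genotype only and 0 calls over all regions. Pcdha6 then ranged from -0.36 to 0.14 and Pcdha11 from -0.08 to 0.15, so that both changed sign. The other 10 named regions kept theirs but moved in size. Pcdhb4 ran from -0.27 to -0.10 and Pcdhgb1 from 0.06 to 0.19. No named region passed the test in any of these fits. With an upstream window of 1 kb or none, 35 genes were called in all 4 libraries. The cause of these differences was not tested.

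The labels number the replicates 1 and 2 in both genotypes. Over all regions, the deviations of same-numbered libraries from their genotype mean had a correlation of 0.0474, which is under 0.1, so the numbers were not taken to pair the samples. A correlation does not register a shift common to all regions. Over the 37 members the correlation was 0.293, and replicate 2 was above replicate 1 in both genotypes in 25 of them. Whether same-numbered libraries share a batch is not given in the labels. With the replicate block, 0 regions passed, 28 of the 37 were lower and their median was -0.119. No region met the criteria for a closer look, since groups of 2 libraries cannot be checked for a library far from the others.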
